A study of Mus musculus with 7 samples.

Results

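The cell-division genes of the embryonic mouse retina were examined as a set of 55 genes out of 48440 listed in a table of read counts. They were taken by name, 31 because they act in DNA replication (S phase) and 24 because they act in G2 or mitosis (G2/M), and each name matched 1 gene. All 55 were abundant enough to be tested, among 20019 tested genes. No measured value entered the choice of names, although the names were proposed with earlier results of these data in view.

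Bulk RNA sequencing was carried out on whole retinas at embryonic day 16 (E16), with 7 libraries in 3 genotypes. The study asked what loss of Ptbp1, an RNA-binding protein that represses many alternative exons, does to retinal progenitors and their progeny. The single wild-type library (WT, labelled Chx10Cre) carried the Chx10-Cre transgene without a floxed allele. The 3 heterozygous libraries (Het) were Chx10-Cre;Ptbp1lox/WT and the 3 knockout libraries (KO) were Chx10-Cre;Ptbp1lox/lox. Cre was thus present in every library, the controls included. It was made as a fusion with GFP under the Chx10 promoter, which is active in retinal progenitors, and the lox sites flank the Ptbp1 promoter and its first exon. Blood vessels, microglia and other cells outside that lineage are not expected targets of Cre. Retinas were pooled for a library, and the Het, not the WT, was the control for the KO. Libraries are called Het1 to Het3 and KO1 to KO3 after the replicate numbers of the labels.

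Retinal progenitors divide at the outer edge of the neuroblastic layer and replicate their DNA deeper in it, while newborn neurons leave the cycle and switch these genes off. Replication begins when the origin recognition complex, Cdc6 and Cdt1 load the Mcm helicase onto DNA. Cyclin E, Mcm10, Cdc45 and the GINS complex then turn the helicase on, and polymerases copy the strands behind it. Later, cyclins A and B with Cdk1 start mitosis, kinetochore proteins and kinesins move the chromosomes, and the anaphase-promoting complex ends it. S-phase genes are typically driven by E2F factors and G2/M genes by a complex that binds the CHR element, so the pair of classes can be read as separate phases of the same dividing cells. In a bulk sample, fewer dividing cells and less of these RNAs per dividing cell cannot be told apart.

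The promoters of the members showed this division in their letters. RefSeq promoter windows of build GRCm38.p6, running from 250 bases before to 50 bases after each start, were matched by symbol to 43 of the 55 members and gave 48 windows. The E2F letters TTTNNCGC were found on either strand in 13 of 28 S-phase windows (46.4%) and 1 of 20 G2/M windows (5.0%), against 5.17% of all 32851 windows. The CHR letters TTTGAA were found in 15 of 20 G2/M windows (75.0%) and 4 of 28 S-phase windows (14.3%), against 17.9% of all windows. CCAAT was found in 18 of 20 G2/M windows, 16 of 28 S-phase windows (57.1%) and 37.4% of all windows. Matches of different motifs were counted separately even where they overlapped, and a match is a description of the sequence, not of binding. The *Cdk1* window was the G2/M window that held E2F letters, and it held CHR letters as well. The sites below show both classes in members described further on. Each is 30 bases, 5′ to 3′ on the strand of its gene, with the motif in capitals. The E2F sites of *Mcm6*, *Orc1* and *Pola1* come first and the CHR sites of *Cdk1*, *Kif23*, *Cenpf* and *Kif11* follow.
Mcm6: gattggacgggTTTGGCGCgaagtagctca
Orc1: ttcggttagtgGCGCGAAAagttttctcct
Pola1: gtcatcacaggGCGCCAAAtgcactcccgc
Cdk1: accgcggcgagTTTGAAactgctggcactc
Kif23: tgattggcctgTTTGAAatgcgccgggcgg
Cenpf: gcggcgggcagTTTGAAtcgctcgtgctgg
Kif11: cgtctccatttTTCAAAattgaggcgcgga

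The *Orc1*, *Pola1* and *Kif11* sites lie in reverse orientation, so their capitals are the reverse complement of the searched letters. On GRCm38.p6 the stretches are chr1:128359734-128359763 (minus strand) for *Mcm6*, chr4:108579416-108579445 (plus strand) for *Orc1* and chrX:93632275-93632304 (minus strand) for *Pola1*. They are chr10:69352909-69352938 (minus strand) for *Cdk1*, chr9:61946779-61946808 (minus strand) for *Kif23*, chr1:189688066-189688095 (minus strand) for *Cenpf* and chr19:37376352-37376381 (plus strand) for *Kif11*.

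The libraries held between 120593979 and 171117305 counted reads. *Ptbp1* itself stood at 381 CPM (counts scaled to a common library total, scaled by TMM library sizes) in the WT, 210, 219 and 234 CPM in the Het, and 27.9, 6.04 and 46.9 CPM in the KO, in the order of the labels. Het1 carried RNA of tissue outside the retina. Its summed level of 14 skeletal muscle markers was 324 CPM against 8.55 to 11.3 CPM elsewhere, its 10 mesenchyme markers summed to 439 CPM against 27.2 to 67.6 CPM, and its 10 pigment epithelium markers to 573 CPM against 47.3 to 91.6 CPM. The 17 retinal progenitor markers were plainly present in all 7 libraries, with a summed level between 7344 and 7781 CPM.

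Dividing-cell RNA was abundant and even. Per kilobase of exon, the mean Het level was highest for the topoisomerase *Top2a*, which untangles sister chromatids, at 99.4 CPM per kb. The helicase subunit *Mcm6* followed at 89.2, the sliding clamp *Pcna* at 78.2 and the proliferation antigen *Mki67*, which coats mitotic chromosomes, at 76.5 CPM per kb. The lowest were *Orc1*, the largest origin recognition subunit, at 1.53 CPM per kb and the flap nuclease *Fen1* at 2.80 CPM per kb. Exons of genes on the opposite strand cover 84.2% of the *Fen1* exon length, so its level is uncertain. The median was 15.4 CPM per kb over the S-phase members and 25.3 over the G2/M members. The coefficient of variation among the 3 Het libraries had a median of 3.38% over the members, and among the 3 KO libraries of 3.85%.

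In the KO, the levels of these genes stayed close to those of the Het, and none rose or fell past the limits used. Every one of the 24 G2/M members had a fitted KO level above its Het level, by a median of 0.10 on the log2 scale, whereas the 31 S-phase members lay on both sides of 0 with a median of 0.04. The highest fold changes were those of the origin gene *Orc1* (0.26) and the kinetochore motor *Cenpe* (0.25), and the lowest that of the thymidylate synthase gene *Tyms* (-0.11). No member differed by as much as 1.2-fold in the fitted values.

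A gene was called when edgeR's quasi-likelihood test gave a Benjamini-Hochberg adjusted p below 0.05 over all genes tested and the fold exceeded 1.2 (0.263 on the log2 scale). By that rule edgeR called 0 of 55 members, where 7.22% of all genes tested were called (4.01% higher and 3.21% lower in the KO). DESeq2 also called 0 of 55, against 7.04%. At an unadjusted p below 0.05 in the edgeR test, 18 members were higher in the KO, against 15.1% of all genes, and 1, *Tyms*, was lower, against 14.6%. The interval of the difference (95%) lay wholly inside the fold limit for 42 of the 55 members, 23 in S phase and 19 in G2/M, against 35.7% of all genes tested. For those 42 a change past the limit lies outside the interval. The other 13 allow one. The standard errors were small, with a median of 0.05 for the S-phase and 0.04 for the G2/M members against 0.09 over all genes tested.

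**Figure D1:**
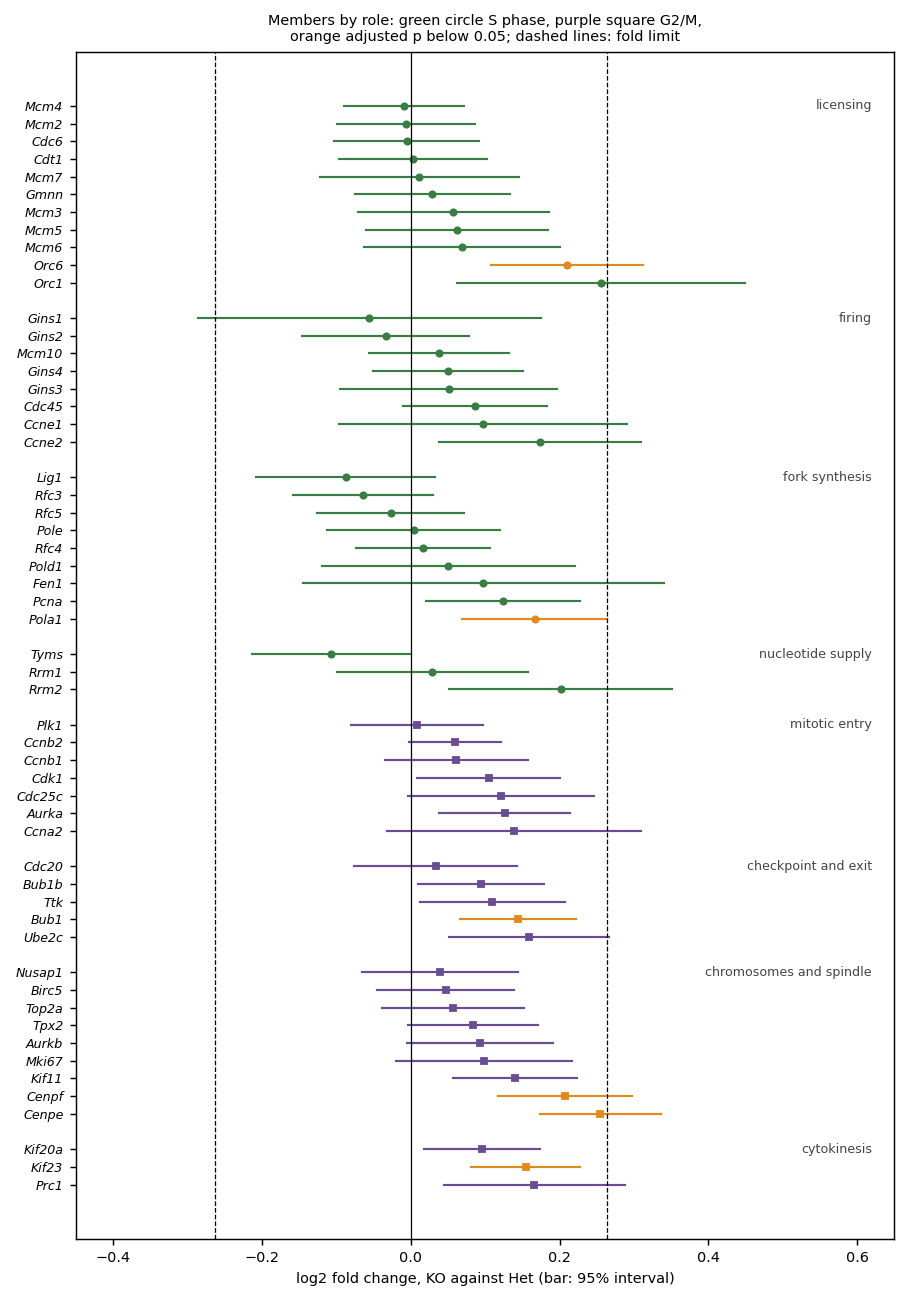
Log2 fold change of KO against Het (x axis) for each of the 55 members, ordered by role, with bars for the 95% interval of the edgeR fit, green circles for S phase, purple squares for G2/M, orange for an adjusted p below 0.05, and dashed lines at the fold limit of 1.2. All 24 G2/M points lie right of 0 and no point passes either dashed line.

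Among the helicase loaders, the 6 subunits *Mcm2* to *Mcm7* stood between -0.01 and 0.07 on the log2 scale, each with an interval inside the fold limit. *Mcm6*, the most abundant licensing gene (chr1:128331590-128359664, minus strand), was at 408, 417.5 and 423 CPM in the Het, 472, 428 and 410 CPM in the KO, and 416 CPM in the WT. KO1 stood clearly above the Het, KO2 just above and KO3 among them. Its log2 fold change was 0.07 ± 0.06 (SE, adjusted p = 0.435, edgeR). *Cdt1* and *Cdc6*, which place the helicase on DNA, were at 0.00 and -0.01, and *Gmnn*, which encodes the Cdt1 inhibitor geminin, was at 0.03.

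The 2 origin recognition members were the licensing genes with the highest fold changes. *Orc6* (chr8:85299632-85308278, plus strand), a small subunit of the complex, was at 37.9, 38.7 and 35.3 CPM in the Het and 44.4, 42.1 and 42.9 CPM in the KO, so that the groups did not overlap, and its WT level of 39.3 CPM lay between them. The log2 fold change was 0.21 ± 0.04 (adjusted p = 0.0291, edgeR), which passed the adjusted p but not the fold limit. *Orc1* (chr4:108579423-108614833, plus strand) was far lower, at 5.11, 5.21 and 5.60 CPM in the Het and 6.08, 6.16 and 6.76 CPM in the KO. The Het and KO of *Orc1* did not overlap either, but its WT level of 6.33 CPM lay within the KO range. Its log2 fold change of 0.26 ± 0.08 had an adjusted p of 0.0909 by edgeR. The other subunits of the complex, which are not members, did not pass the adjusted p, with *Orc2* at 0.14, *Orc4* at 0.13, *Orc3* at 0.01 and *Orc5* at 0.00.

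The genes that fire the origins gave no called change. *Mcm10*, the most abundant of them (chr2:4989714-5012791, minus strand), which joins helicase activation to priming, was at 50.1, 52.6 and 53.7 CPM in the Het and 54.5, 51.3 and 54.6 CPM in the KO. The groups overlapped, the WT was at 53.4 CPM, and the log2 fold change was 0.04 ± 0.04 (adjusted p = 0.556, edgeR). The 4 GINS genes lay between -0.06 and 0.05. *Cdc45*, the third part of the active helicase, was at 0.09, and the cyclin E genes were at 0.10 for *Ccne1* and 0.17 for *Ccne2*. *Ccne2* had every KO library above every Het library (27.2, 31.2 and 29.3 CPM against 33.6, 31.7 and 33.4 CPM), with an adjusted p of 0.0969 by edgeR.

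At the fork, 1 polymerase gene among the members passed the adjusted p alone. *Pola1* (chrX:93304767-93632155, minus strand), the catalytic subunit of the polymerase alpha that lays down primers, was at 101, 105 and 111 CPM in the Het and 121, 115 and 119 CPM in the KO. The groups did not overlap, the WT was at 107 CPM, and the log2 fold change was 0.17 ± 0.04 (adjusted p = 0.0483, edgeR), below the fold limit. *Pola2*, another subunit of polymerase alpha and not a member, went the other way. It was at 48.7, 48.4 and 48.6 CPM in the Het and 46.3, 42.4 and 42.5 CPM in the KO (-0.15, adjusted p = 0.0591, edgeR). The primase genes *Prim1* and *Prim2*, also not members, were at 0.07 and 0.03. The polymerases that extend the lagging and the leading strand, *Pold1* and *Pole*, were at 0.05 and 0.00. The clamp *Pcna* was at 0.12 with KO and Het apart, while its loader genes *Rfc3*, *Rfc4* and *Rfc5* lay between -0.06 and 0.02. *Lig1* (chr7:13277283-13311433, plus strand), the ligase that seals Okazaki fragments and the most abundant fork gene, was at 232, 247 and 247 CPM in the Het and 243, 221 and 219 CPM in the KO. KO1 lay within the Het range and the other KO libraries below it, the WT was at 246 CPM, and the log2 fold change was -0.09 ± 0.05 (adjusted p = 0.291, edgeR).

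The nucleotide suppliers lay on both sides of 0. *Rrm1* (chr7:102441695-102469771, plus strand), the large subunit of ribonucleotide reductase, was at 306, 326 and 326 CPM in the Het, 348, 320 and 308 CPM in the KO, and 317 CPM in the WT. The groups overlapped, with a log2 fold change of 0.03 ± 0.05 (adjusted p = 0.751, edgeR). *Rrm2*, the small subunit whose level follows S phase, was at 131, 148 and 156 CPM in the Het and 170, 164 and 167 CPM in the KO, with no overlap and a log2 fold change of 0.20 ± 0.06 (adjusted p = 0.0863, edgeR). *Tyms*, which makes thymidylate, went the other way, from 63.7, 67.8 and 67.3 CPM in the Het to 63.9, 58.1 and 62.6 CPM in the KO. KO1 lay above the lowest Het library, and the adjusted p was 0.167 by edgeR.

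**Figure D2:**
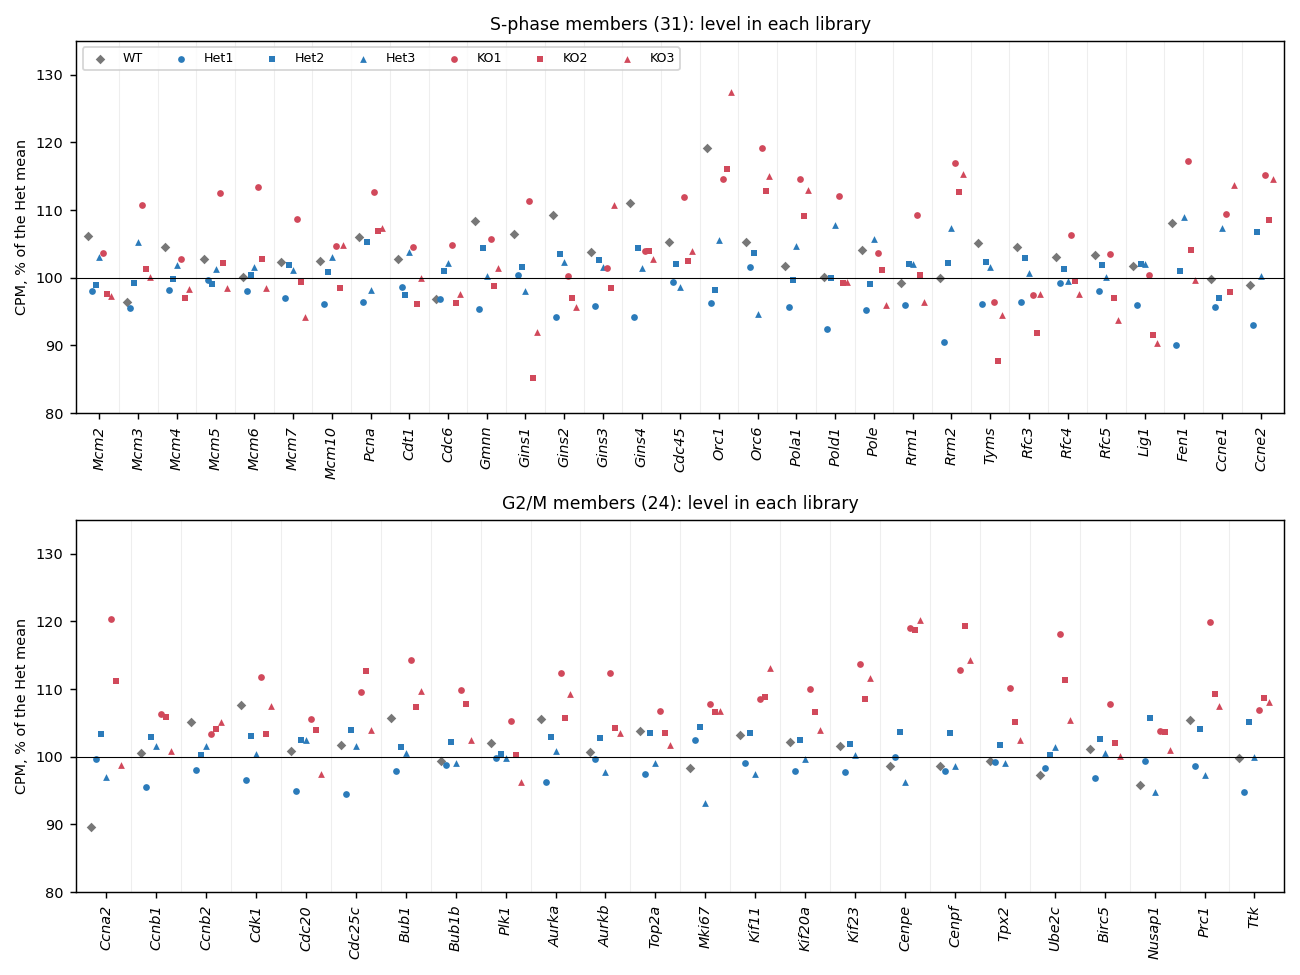
CPM of each member in each of the 7 libraries as a percentage of its Het mean (y axis), with S-phase members in the upper and G2/M members in the lower panel, gray diamonds for WT, blue for Het and red for KO, and a line at 100. In the G2/M panel the red points mostly lie above the blue ones, and in the S-phase panel they are mixed, with KO1 often on top and Het1 often at the bottom.

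The mitotic entry genes were all fitted above the Het, and none passed the adjusted p. *Ccna2*, encoding cyclin A, was the most abundant (chr3:36564865-36572150, minus strand), at 253, 262 and 246 CPM in the Het and 305, 282 and 251 CPM in the KO. KO3 lay within the Het range, the WT was lower than every other library at 227 CPM, and the log2 fold change was 0.14 ± 0.07 (adjusted p = 0.243, edgeR). The kinase gene *Cdk1* was at 115, 122 and 119 CPM in the Het and 133, 122.9 and 128 CPM in the KO, just apart, with its WT level of 128 CPM inside the KO range. The cyclin B genes *Ccnb1* and *Ccnb2* were both at 0.06, the activating phosphatase *Cdc25c* at 0.12, and the kinases *Aurka* and *Plk1* at 0.13 and 0.01.

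Of the checkpoint genes, *Bub1* (chr2:127801122-127831865, minus strand), a kinetochore kinase of the spindle checkpoint, was at 62.1, 64.3 and 63.8 CPM in the Het and 72.5, 68.1 and 69.6 CPM in the KO. The groups did not overlap, the WT was at 67.0 CPM, and the log2 fold change was 0.14 ± 0.03 (adjusted p = 0.0395, edgeR). *Ube2c* (chr2:164769898-164778822, plus strand), the ubiquitin-conjugating enzyme of the anaphase-promoting complex and the most abundant gene of this role, was at 127, 130 and 131 CPM in the Het and 153, 144 and 136 CPM in the KO. These too were apart, with the WT at 126 CPM and a log2 fold change of 0.16 ± 0.05 (adjusted p = 0.0700, edgeR). The checkpoint kinases *Bub1b* and *Ttk* were at 0.09 and 0.11, and *Cdc20*, which activates the anaphase-promoting complex, was at 0.03.

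The kinetochore genes held the smallest adjusted p-values of the set. *Cenpe* (chr3:135212537-135273611, plus strand), a kinesin that carries chromosomes to the spindle equator, was at 142, 148 and 137 CPM in the Het and 170, 169 and 171 CPM in the KO, and the WT at 140 CPM lay within the Het range. The 3 KO libraries differed by less than the gap to the highest Het library, and the log2 fold change was 0.25 ± 0.03 (adjusted p = 0.0100, edgeR). *Cenpf* (chr1:189640606-189688086, minus strand), a large kinetochore protein that peaks in G2, was at 278, 294 and 280 CPM in the Het and 320, 339 and 324 CPM in the KO. The WT at 280 CPM again lay within the Het range, and the log2 fold change was 0.21 ± 0.04 (adjusted p = 0.0213, edgeR). *Kif11*, the kinesin that pushes spindle poles apart, was at 0.14 and its adjusted p of 0.0502 by edgeR was just above the threshold.

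The most abundant member, *Top2a* (chr11:98992943-99024189, minus strand), differed little. It was at 874, 927 and 888 CPM in the Het, 957, 928 and 911 CPM in the KO, and 931 CPM in the WT. The groups overlapped, with a log2 fold change of 0.06 ± 0.04 (adjusted p = 0.381, edgeR). *Mki67* was at 788, 803 and 717 CPM in the Het and 830, 820 and 821 CPM in the KO, apart by a small gap, with a log2 fold change of 0.10 and an adjusted p of 0.235 by edgeR. The chromosomal passenger genes *Aurkb* and *Birc5* and the spindle assembly genes *Tpx2* and *Nusap1* lay between 0.04 and 0.09.

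Among the genes that complete division, *Kif23* (chr9:61915905-61946774, minus strand), a kinesin of the central spindle, was at 80.5, 83.9 and 82.5 CPM in the Het and 93.6, 89.3 and 91.8 CPM in the KO. The groups did not overlap, the WT was at 83.5 CPM, and the log2 fold change was 0.15 ± 0.03 (adjusted p = 0.0275, edgeR). *Prc1* (chr7:80294450-80316259, plus strand), which bundles the microtubules of the central spindle and was the most abundant of this role, was at 155, 163 and 153 CPM in the Het and 188, 171 and 169 CPM in the KO. Its WT level of 165 CPM lay between the groups, and the log2 fold change was 0.17 ± 0.05 (adjusted p = 0.0835, edgeR). *Kif20a*, a kinesin of the same structure, was at 0.10.

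In all, 6 of 55 members passed the adjusted p alone, each higher in the KO and each under the fold limit, where 5.78% of all genes tested passed it upward and 5.31% downward (11.1% in all). They were *Orc6* and *Pola1* of the S-phase members and *Bub1*, *Kif23*, *Cenpe* and *Cenpf* of the G2/M members. The S-phase share was 6.45%, near the 5.78% of all genes, and the G2/M share was 16.7%. Over 14 fits that differed in scaling, filter, tool or libraries, *Cenpe* passed in 14, *Cenpf* in 10, *Kif23* and *Orc6* in 9, *Bub1* in 7 and *Pola1* in 5. The count dropped to 1 when Het1, Het2, Het3 or KO2 was left out and to 3 when KO1 was, and DESeq2 gave 10, and *Cenpe* passed in each of these.

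Every KO library lay above every Het library for 17 of 24 G2/M members (70.8%) and 7 of 31 S-phase members (22.6%), where 18.6% of all genes tested did. No member had every KO library below every Het library, where 17.7% of all genes did. The members share the same 7 libraries, so these counts are not independent observations of the genotype. Single libraries carried much of the S-phase pattern: Het1 was the lowest Het library for 26 of 31 S-phase and 16 of 24 G2/M members, and KO1 was the highest KO library for 25 and 18. In the full fit, 22 of 31 S-phase members had a fold change above 0, against 49.0% of all genes. Without Het1 the number was 16 with a median of 0.01, and without KO1 it was 16 with a median of 0.00. The G2/M members kept 23 of 24 above 0 in both cases, with medians of 0.08.

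**Figure D3:**
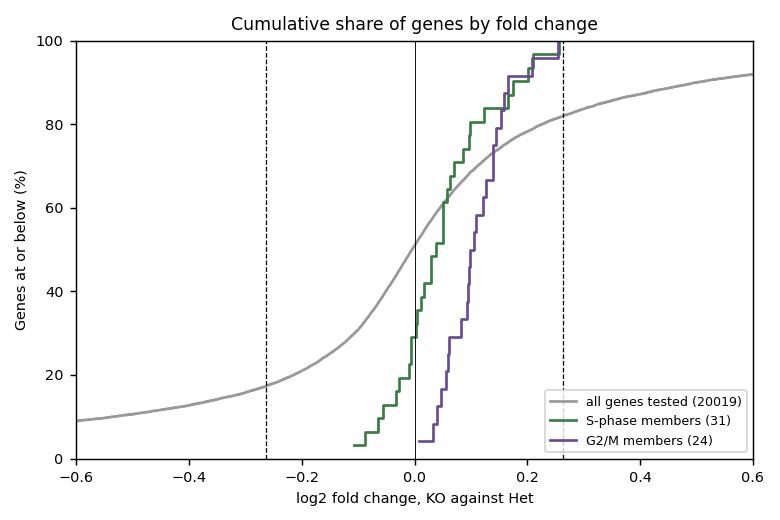
Percentage of genes (y axis) with a log2 fold change of KO against Het at or below the value on the x axis, for the 20019 genes tested (gray), the 31 S-phase members (green) and the 24 G2/M members (purple), with dashed lines at the fold limit of 1.2. The G2/M curve starts right of 0, the S-phase curve starts at -0.11, and both reach 100% before the right dashed line.

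S phase and G2/M were then compared within each library through a score, the mean log2 CPM of the members of a class. The S score was 6.08 ± 0.05 in the Het and 6.13 ± 0.06 in the KO (SD, n = 3 each), with overlapping libraries, and 6.14 in the WT. The sign of this S score difference turned when the median over members replaced the mean. That median is the level of the middle gene in each library, *Rfc5* or *Tyms*. The fold changes of the S-phase members had a median of 0.04. The G2/M score was 6.94 ± 0.04 in the Het and 7.05 ± 0.04 in the KO (SD, n = 3 each), with no overlap, and 6.95 in the WT, inside the Het range. The S minus G2/M difference was -0.88, -0.88 and -0.81 in the Het and -0.89, -0.96 and -0.90 in the KO, and -0.82 in the WT. Each KO value was below each Het value, but the gap between KO1 and Het1, the nearest pair, was smaller than the Het SD of 0.04. The KO mean was lower than the Het mean by a log2 difference of -0.06, with a pooled SD of 0.04. Without Het3 the S minus G2M score difference was -0.04, and without KO2 it was -0.04. With 3 libraries against 3 an exact permutation test cannot give a p below 0.1, and no p is given for scores over chosen genes. The ratio of summed G2/M to summed S-phase CPM overlapped between the groups, at 1.25, 1.25 and 1.17 in the Het, 1.24, 1.30 and 1.29 in the KO, and 1.199 in the WT.

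The WT library, which has no replicate, placed the classes differently. For the S-phase members the WT was above all Het libraries in 17 of 31, and the KO level was at a median of 99.8% of the WT, with every KO library above the WT for 6 members and below it for 9. For the G2/M members the WT was above all Het libraries in 7 of 24, and the KO was at a median of 107% of the WT, with every KO library above it for 18 and below it for 0. The S-phase difference between KO and Het was thus of the size of the difference between the WT and the Het, and the G2/M difference was not. With 1 WT library neither was tested.

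**Figure D4:**
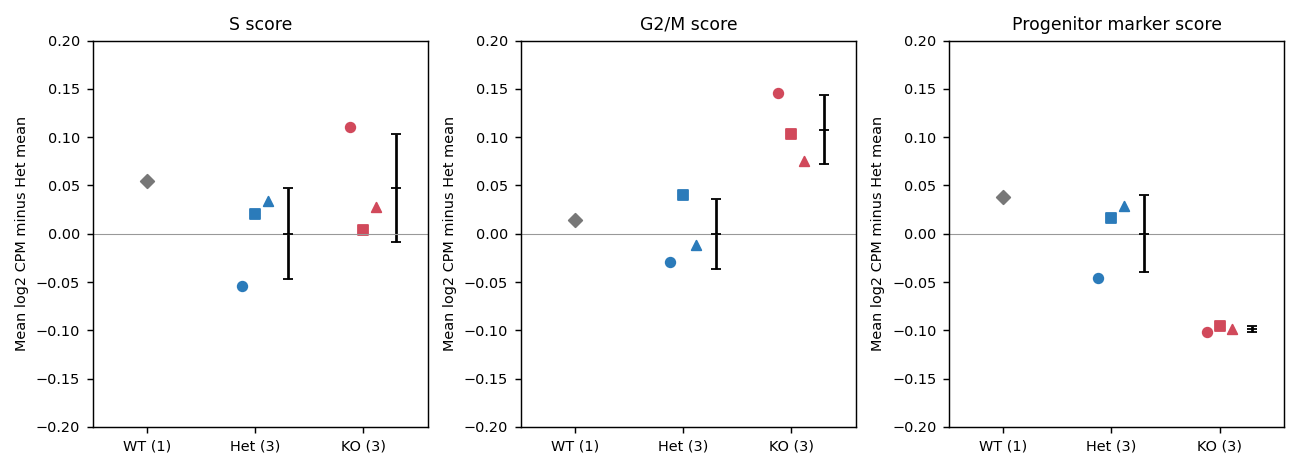
Score of each library minus the Het mean, in log2 CPM (y axis), for the S-phase members, the G2/M members and 17 retinal progenitor markers, with symbols for single libraries and bars for the mean ± SD of the 3 Het and 3 KO libraries. The KO libraries lie above all others for G2/M, mix with them for S phase and lie below all others for the progenitor markers. The progenitor score leans on the falls of *Sfrp2*, *Hmga2* and *Fgf15*.

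Markers of the cell types of the retina were read beside these scores. Over 17 retinal progenitor markers the score was 8.03 ± 0.04 in the Het and 7.93 ± 0.00323 in the KO (SD, n = 3 each), lower in every KO library, and 8.07 in the WT. The summed level of the same markers overlapped, at 7362 to 7668 CPM in the Het and 7344 to 7630 CPM in the KO. The list was mixed: edgeR called *Notch1*, the receptor that keeps progenitors undifferentiated, and *Hes5*, its target, higher in the KO (log2 fold changes 0.29 and 0.32, adjusted p = 0.0130 and 0.0475), and *Sfrp2*, *Hmga2* and *Fgf15* lower (-1.05, -0.58 and -0.49, adjusted p = 0.0148, 0.00350 and 0.0110). The score difference of -0.10 between KO and Het leaned on these 3 falls. The median log2 fold change of the 17 markers was -0.03, with 6 above 0 and 11 below. The most abundant marker, the G1 cyclin gene *Ccnd1*, was at 0.10 and was not called. Over 12 neuron markers the summed level was 5811 to 6073 CPM in the Het and 5076 to 5705 CPM in the KO, without overlap, although the score was at -0.07 with overlapping libraries. Its most abundant gene, the neuronal tubulin *Tubb3*, was called lower (-0.35, adjusted p = 0.0196, edgeR). This list was mixed too, with 5 of 12 genes above 0, 3 called lower and 1, the dendritic microtubule gene *Map2*, called higher (0.36, adjusted p = 0.00774, edgeR). CPM are shares of a library, and the part of the lower neuronal sum in the G2/M values was not tested.

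Summed levels of markers of other cells were read in the same way. The 9 microglia markers summed to 52.4 to 73.5 CPM in the Het and 77.1 to 102 CPM in the KO. Of these, 8 had a positive and 1 a negative fold change, and edgeR called *Cx3cr1* alone. The 9 endothelial markers summed to 393 to 413 CPM in the Het and 488 to 586 CPM in the KO, of which the VEGF receptor gene *Kdr* made up 363 to 376 and 468 to 562 CPM. The rest of that list did not follow the sum: 6 of the 9 genes had a negative fold change, among them *Cdh5* (-1.73) and *Pecam1* (-1.45), which join endothelial cells to one another, and the median was -1.40. Of the 9, edgeR called *Kdr* alone. All 9 genes of both lists were above 1 CPM in the Het mean, and their part in the division genes was not tested. The 10 erythroid markers summed to 189 to 531 CPM in the Het, 340 CPM in the WT, and 37.5, 25.0 and 299 CPM in KO1, KO2 and KO3. The 9 lens markers with counts summed to 37.7 to 101 CPM in the Het, 18.5 CPM in the WT, and 4.10, 8.03 and 56.4 CPM in the KO libraries. For both lists the groups overlapped through KO3 alone, and KO1 and KO2 lay below every Het library.

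Wider lists of the same processes, which hold none of the 55 members, were counted in the same fit. Of 61 other replication genes edgeR called 0, with a median log2 fold change of 0.02. The 2 that passed the adjusted p alone were *E2f1*, the S-phase transcription factor (0.23), and *Dbf4*, the partner of the Cdc7 kinase (0.23), both higher in the KO. They are 3.28% of the list, below the 5.78% of all genes tested that passed upward. Of 83 other mitosis genes it called 7, with a median of 0.10, and 26 passed the adjusted p alone upward and 3 downward. The 7 are 8.43% of the list, against 7.22% of all genes. The 26 are 31.3% of the list, where 5.78% of all genes tested passed the adjusted p upward and 5.31% downward.

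The largest rise was that of *Ncapg2*, a condensin II subunit, from 48.2, 50.1 and 44.8 CPM in the Het to 76.2, 71.1 and 71.7 CPM in the KO (log2 fold change 0.61 ± 0.05, adjusted p = 0.00308, edgeR). *Spc25*, a subunit of the Ndc80 kinetochore complex, rose from 79.1, 84.3 and 75.5 CPM to 136, 108 and 100.02 CPM (0.53 ± 0.11, adjusted p = 0.0341, edgeR). *Psrc1*, a microtubule-binding spindle protein, rose from 16.7, 16.5 and 18.2 CPM to 20.1, 23.6 and 20.8 CPM (0.32 ± 0.08, adjusted p = 0.0419, edgeR). In each, every KO library lay above every Het library, and the WT lay within the Het range at 48.2, 82.8 and 17.3 CPM. The *Ncapg2* call held when any 1 Het or KO library was left out and in the test against the fold limit. The *Spc25* call was lost without Het1, Het2, Het3 or KO2, the *Psrc1* call without Het1, Het2, Het3, KO2 or KO3, and both in the test against the fold limit. *Arhgap11a*, *Anln* and *Kif20b*, which act at the cell cortex and midbody, were the other genes called higher, at 0.30, 0.27 and 0.27, and each lost its call without Het3. *Arhgap11a* also lost it without Het2, KO1 or KO2, and *Kif20b* without Het2, KO2 or KO3. *Cenph*, a subunit of the inner kinetochore, was the only one called lower, from 13.998, 14.7 and 15.0 CPM to 11.3, 10.6 and 11.2 CPM (-0.40 ± 0.06, adjusted p = 0.0118, edgeR), with the WT at 16.7 CPM, a call that was lost without Het2 or Het3.

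**Figure D5:**
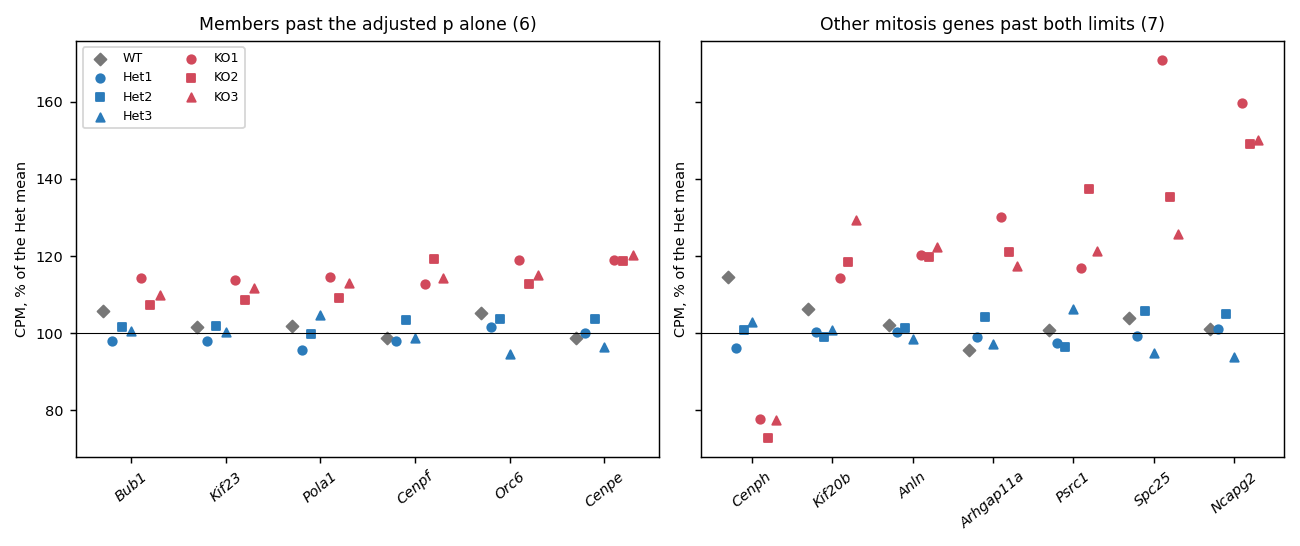
CPM of single genes in each library as a percentage of the Het mean (y axis), for the 6 members that passed the adjusted p alone (left) and the 7 other mitosis genes called past both limits (right), with gray diamonds for WT, blue for Het and red for KO, and a line at 100. In each gene all red points lie on 1 side of the blue points, above for every gene but *Cenph*.

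Some members share genomic sequence with a neighbor, and strand use in the counting was not given in the sources used here. On the GENCODE M21 annotation, exons of other genes cover 84.2% of the exon length of *Fen1*, 67.3% of *Gins2*, 29.3% of *Kif20a* and 22.8% of *Ube2c*, in each case from the opposite strand. The neighbor of *Ube2c* is the muscle gene *Tnnc2*, and *Ube2c* exons cover 74.0% of its exon length. In Het1, the library with muscle RNA, *Ube2c* was not high. *Tnnc2* itself was at 0.00589 CPM there, where the muscle genes *Tnni2* and *Tnnt3* were at 8.11 and 13.8 CPM. Whether reads of shared sequence were left out of the counts of both genes was not tested. Reads of these 4 genes and of their neighbors could not be told apart without strand, and the values above are uncertain to that extent. The same holds, to a lesser extent, for other members. In all, 12 members had more than 10% of their exon length covered. Among them were *Ccne2* (17.4%), *Mcm7* (12.6%, of which a part on the same strand), *Ccna2* (12.5%), *Prc1* (11.1%) and *Orc1* (10.8%). Pseudogene copies are annotated for *Ccnb1*, *Ccnb2*, *Pcna* and *Tyms*, and the handling of reads that match several copies was not given either. Of the members, 35 had no exon overlap with another gene.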

How the data were processed

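The authors aligned reads of stranded, poly(A)-selected libraries to the mouse genome (GRCm38/mm10) with STAR and deposited whole-number counts per gene, made with featureCounts on GENCODE annotation. Options for strand and for reads matching several places were not given in the sources used here. The deposited counts were used as they stand for 1 WT, 3 Het and 3 KO libraries of pooled E16 retinas.

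Genes were filtered by filterByExpr on genotype (20019 of 48440 kept), scaled by TMM (factors 0.988 to 1.03) and fitted with edgeR 4.0.16 (R 4.3.3) in 1 quasi-likelihood model over all 7 libraries with 1 mean per genotype. KO was contrasted with Het, and Benjamini-Hochberg adjustment ran over all genes tested. SE is the absolute log2 fold change over the square root of F, and intervals use the moderated degrees of freedom. Scores are means of log2 CPM with a prior count of 2. DESeq2 1.42.0 was an alternative, as were other scalings, filters, a test against the fold limit and fits without single libraries. Scripts were tested on simulated data, where edgeR recovered 30 of 67 genes changed 1.5-fold and 66 of 67 changed 2-fold. Changes smaller than 1.5-fold were not simulated. Within the Het and within the KO, no library was a copy of another, and pairs across genotypes were not compared. At 120593979 or more counts per library, counting error is small beside the spread between libraries. The labels do not tie the libraries of a group to separate litters, so p-values measure the spread between these samples. Coordinates and exon lengths come from GENCODE M21 on GRCm38, a later release than the authors' M10.

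The members and lists were chosen with earlier results of these data known. Any member could be named, with full statistics for the most abundant member of each role and for any called member. Of the other lists, the 3 largest rises and falls among called genes with a mean of at least 1 CPM were taken, and of a marker list its most abundant gene. The other genes given values (members past the adjusted p alone, further called genes, *E2f1*, *Dbf4*, *Pola2*, the primase genes and single muscle genes) were chosen after their values were seen.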

Additional observations from a re-analysis of the deposited data

How the results depend on the processing

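The WT has 1 library, so no comparison with it was tested, and each of the other groups has 3. The medians over S-phase and G2/M members stayed above 0 in every fit, and in the fits that left no library out 488 member fold changes kept their sign and their side of the limits, 6 passed them (those of the adjusted p alone) and 1 changed sign. Counting by the adjusted p alone gave 6 called members and 31 called genes of the other replication and mitosis lists. The test against the fold limit gave 1 gene of those lists. DESeq2 put 10 members past the adjusted p alone and gave a log2 fold change of Cdt1 of -0.00114. Leaving out 1 library at a time gave 0 to 1 called members (*Cenpe*, without Het2, at 0.28), 2 to 8 called genes of the other lists (2 without Het2, 3 without Het3 or KO2) and 1 to 7 members past the adjusted p alone.

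Same-numbered Het and KO libraries deviated together with correlations of -0.197, 0.159 and -0.0739. Not every library correlated best with its own number, so the numbers were not taken as pairs. With 3 libraries a group, these correlations cannot exclude shared litters or preparation. With the replicate number as a block, 3 members passed the adjusted p alone, 0 were called and 6 genes of the other lists were called, without *Psrc1*.

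Taking the median in place of the mean over members, the S score per library differed by -0.0686 and the S minus G2M score by -0.141 between KO and Het. The sign of the S score difference thus turned. The median of 31 members is the level of the middle gene, which was *Rfc5* in Het1, Het2, Het3 and KO3 and *Tyms* in KO1 and KO2. It is not the median of the fold changes, which was 0.04 for the S-phase members, with 22 of 31 above 0.

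Several members near 0 changed sign when 1 library was left out. The ranges of their log2 fold changes were -0.037 to 0.0157 for *Mcm2*, -0.0337 to 0.00791 for *Mcm4*, -0.0458 to 0.0609 for *Mcm7*, -0.0287 to 0.0317 for *Cdt1*, -0.0439 to 0.0181 for *Cdc6*, -0.00507 to 0.0607 for *Gmnn* and -0.173 to 0.0241 for *Gins1*. They were -0.00942 to 0.108 for *Pold1*, -0.0309 to 0.0461 for *Pole*, -0.0224 to 0.0707 for *Rrm1*, -0.0196 to 0.0445 for *Rfc4*, -0.0669 to 0.00714 for *Rfc5*, -0.00266 to 0.0703 for *Cdc20* and -0.0248 to 0.0422 for *Plk1*.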

Other observations

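*Pttg1*, which encodes securin, the inhibitor that holds back the cleavage of sister chromatid cohesion, had the lowest fold change of the 83 other mitosis genes and was chosen here after its values were seen. It was at 38.2 CPM in the WT, 38.4, 37.8 and 36.5 CPM in the Het, and 10.8, 16.7 and 25.4 CPM in the KO. Every KO library was below every Het library, but the KO libraries were spread widely. The log2 fold change was -1.09 ± 0.28 with an adjusted p of 0.0522 by edgeR, so the gene was not called, while DESeq2 gave -1.10 with an adjusted p of 0.0107. By edgeR it was called without KO1, without KO3, and with the 6 Het and KO libraries alone. It was also called without a filter on low counts and with at least 10 counts in every library. In those edgeR fits the adjusted p ran from 0.0137 (without KO3) to 0.0489 (the 6 libraries), below 0.05 by the calling rule. The call was absent with the other scalings, the replicate block and the test against the fold limit, and without Het1, Het2, Het3 or KO2.

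The G1 to S phosphatase gene *Cdc25a* and the cyclin F gene *Ccnf* were the other mitosis genes besides *Cenph* that passed the adjusted p downward, and both were chosen after their values were seen. *Cdc25a* was at 64.0, 69.6 and 71.5 CPM in the Het and 56.0, 57.7 and 60.6 CPM in the KO (log2 fold change -0.23, adjusted p = 0.0331, edgeR), with the WT at 73.2 CPM. *Ccnf* was at 69.3, 71.3 and 72.0 CPM in the Het and 63.2, 60.9 and 57.4 CPM in the KO (-0.23, adjusted p = 0.0206, edgeR), with the WT at 69.2 CPM. Both lay under the fold limit of 1.2.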
